A study of Rattus norvegicus with 16 samples.

Results

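The epidermal growth factor (EGF) family was described in the mammary glands of young female rats as 6 ligand genes and 4 receptor genes, 10 of the 14324 gene symbols named on the array. The ligands were Areg, Ereg, Btc, Tgfa, Hbegf and Egf, and the receptors were Egfr, Erbb2, Erbb3 and Erbb4. The genes were chosen by name, and each had 1 probe set that carried its symbol alone. All 10 lay above the filter on dim genes (a mean of 5.661 on the log2 scale over the 16 arrays) and were among the 11796 genes tested.

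The animals were female offspring of Wistar Han dams, which were fed a purified diet free of phytoestrogens in every group. Dams were gavaged once a day from gestational day 1 until weaning at postnatal day (PND) 21 with a mixture of both compounds, with vinclozolin, or with genistein, with a daily dose of 1 mg per kg of each compound given, also in the mixture, and control dams were untreated. Vinclozolin is a fungicide with antiandrogenic action, and genistein is an isoflavone of soy, a ligand of estrogen receptors. Glands were taken at PND50 and PND35, and each of the 8 groups of treatment and age had 2 Affymetrix arrays. Dams were randomised into groups of 15, 1 female of a litter was used, and each array carried pooled RNA of 5 animals, so differences between single animals cannot be seen. If each group of 15 dams was 1 treatment, its 2 pools of 5 animals at each of the 2 ages hold more animals than it had litters. Some litters then gave animals to more than 1 pool. The sample labels name no litter, so which pools share litters is not known. The tests treat all pools as independent and make no allowance for shared litters.

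Ligands of this family are made as membrane proteins and are released by metalloproteases such as Adam17. The 6 ligands here bind Egfr, and some also Erbb4, and the receptors signal as pairs. Erbb2 has no known ligand and Erbb3 has a weak kinase, so each works largely through its partner. In the mouse mammary gland, amphiregulin, the product of Areg, is induced by estrogen in luminal cells and acts through stromal Egfr on the elongation of ducts at puberty, while Erbb4 and the neuregulins act in alveolar development.

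The promoters shown are of members whose values the comparisons below turn on: Areg and Btc, neighbouring ligand genes whose levels ran apart, Tgfa, and the receptor genes Erbb2 and Erbb4. The windows are the 250 bases before each gene's start in the RefSeq annotation of the GRCr8 assembly, printed 5′ to 3′ on the gene's own strand. A promoter table held 8 of the 10 members, and Ereg and Erbb3 are named only. Capitals mark every match, on either strand, to the motifs named after the sequences. Areg was at chr14:17265642-17265891 on the minus strand, Btc at chr14:16992418-16992667 on the plus strand, Tgfa at chr4:120175469-120175718 on the plus strand, Erbb2 at chr10:83907351-83907600 on the plus strand and Erbb4 at chr9:78045607-78045856 on the minus strand.
Areg: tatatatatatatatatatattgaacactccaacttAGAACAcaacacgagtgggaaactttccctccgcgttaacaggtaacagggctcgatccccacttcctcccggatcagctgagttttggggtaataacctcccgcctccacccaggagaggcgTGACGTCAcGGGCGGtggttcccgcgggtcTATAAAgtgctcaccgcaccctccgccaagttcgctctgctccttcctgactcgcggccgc
Btc: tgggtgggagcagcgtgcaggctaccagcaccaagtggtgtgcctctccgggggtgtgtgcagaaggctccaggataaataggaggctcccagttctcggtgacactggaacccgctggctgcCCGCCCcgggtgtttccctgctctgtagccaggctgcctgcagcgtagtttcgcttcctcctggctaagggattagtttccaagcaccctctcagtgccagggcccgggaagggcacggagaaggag
Tgfa: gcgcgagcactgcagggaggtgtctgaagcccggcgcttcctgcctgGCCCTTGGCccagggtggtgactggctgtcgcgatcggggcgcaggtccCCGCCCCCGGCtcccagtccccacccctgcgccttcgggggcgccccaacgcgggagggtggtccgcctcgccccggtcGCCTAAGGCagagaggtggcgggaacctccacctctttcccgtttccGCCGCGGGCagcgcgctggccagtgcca
Erbb2: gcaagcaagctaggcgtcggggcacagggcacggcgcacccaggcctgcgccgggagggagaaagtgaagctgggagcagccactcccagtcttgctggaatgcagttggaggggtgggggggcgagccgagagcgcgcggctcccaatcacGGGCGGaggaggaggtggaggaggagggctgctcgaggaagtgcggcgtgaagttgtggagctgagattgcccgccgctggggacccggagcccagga
Erbb4: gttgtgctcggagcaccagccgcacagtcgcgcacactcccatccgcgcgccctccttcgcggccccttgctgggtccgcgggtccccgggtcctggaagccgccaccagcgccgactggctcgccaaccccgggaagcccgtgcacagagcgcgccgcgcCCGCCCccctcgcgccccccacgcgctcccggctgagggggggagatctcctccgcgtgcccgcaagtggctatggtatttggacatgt

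The Areg window held 1 cyclic AMP response element, TGACGTCA, from base 91 to base 84 before the start, which 1.59% of all 33465 promoters of that length held. It was the only one of the 8 members with that element. Areg also held a Sp1 box (GGGCGG, bases 82 to 77), a TATA box (TATAAA, bases 61 to 56) and a steroid receptor core (AGAACA, bases 214 to 209), which 30.5%, 12.9% and 17.5% of all promoters held. A Sp1 box stood in 6 of the 8 windows, those of Areg, Btc, Tgfa, Egfr, Erbb2 and Erbb4. The Tgfa window held 4 matches to the AP-2 motif GCCNNNGGC, found in 12.6% of all promoters, and 1 of these overlapped its Sp1 box. The estrogen response core GGTCA (35.4% of all promoters), the full estrogen response element, that core and its inverse 3 bases apart (0.0239%), and the AP-1 motif TGANTCA (6.34%) had no match in the 8 windows. Base composition ranged widely, with 74.4% G and C in Tgfa, 73.6% in Erbb4, 69.2% in Erbb2, 62.8% in Btc and 54.4% in Areg, against a median of 51.2% over all windows. On chromosome 14 the order of genes was Btc, Areg, Ereg and Epgn. A match here describes letters in a window and is no evidence of binding.

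All values are log2 intensities as deposited, and a difference of 1 is a 2-fold change. The level of one gene's probe set is not compared with that of another. Differences were tested with limma on 1 mean per group over all 16 arrays, two-sided, and p-values were adjusted over the 11796 genes of each comparison, with a threshold of 0.05. Replicate arrays of a group had an r of at least 0.9893, lowest for the vinclozolin pools at PND35, and their number limits the precision. The labels call the 2 arrays of a group biological replicates, and the p-values measure the spread between pools. All 15 luminal epithelial markers and 12 adipocyte markers passed the filter on dim genes, which alone does not show that a tissue was present. The 8 hair follicle genes tested passed it too. They stood apart in the vinclozolin PND35 pools, as given with the values they touch.

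**Figure D1:**
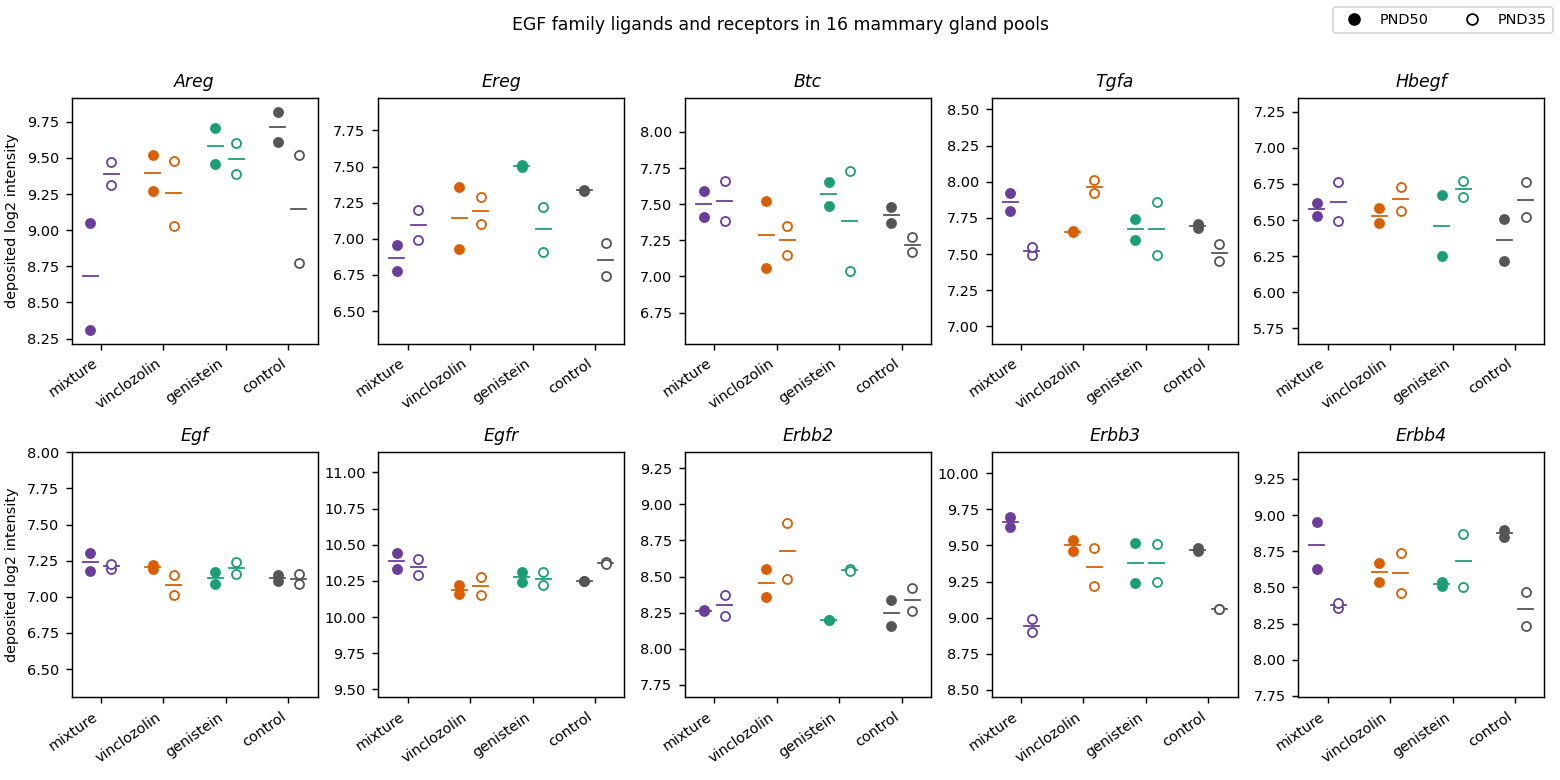
Log2 intensity of each of the 10 genes in the 16 pools. The vertical axis has the same span in every panel, around the gene's own centre. Treatments run from mixture to control on the horizontal axis, with filled points for PND50 and open points for PND35. Areg had the widest range, 1.51, and its lowest value was a mixture pool at PND50, while Egf and Egfr stayed within 0.283 and 0.298.

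Between the ages, 3 of the 10 members changed, where 44.6% of all tested genes did. Erbb3 and Erbb4 rose and Erbb2 fell at PND50 in the average over the 4 treatments, against 19.4% of all genes higher and 25.2% lower. In that average no ligand passed limma's test on the values as deposited over all 16 arrays, and Hbegf passed with quantile normalization. The median log2 change of the 10 members was 0.04, beside -0.008 over all genes. The pools of the 2 ages overlapped for every member, while 5.76% of all genes had none overlapping. Other tissue markers moved with age in the average over treatments as well. All 13 proliferation, 8 skeletal muscle, 8 hair follicle and 4 red cell genes tested fell, and 4 of 5 lymphocyte genes rose. The treatments differed in this. The mean centred log2 value of the hair follicle genes went from 3.26 and 2.80 to -0.55 and -0.46 with vinclozolin. In control pools it went from -0.48 and -0.45 to -0.48 and -0.41. That of the skeletal muscle genes went from -0.15 and 0.24 to 1.44 and 0.09 with vinclozolin. The part of these markers in the members' values was not tested. Fewer cells of a type and less RNA per cell cannot be told apart in pooled tissue. Without both vinclozolin PND35 pools, which carried the hair follicle genes, the average over the other 3 treatments was 0.38 for Erbb3 (adjusted p = 0.000763), 0.26 for Erbb4 (0.0173) and -0.16 for Erbb2 (0.0307). Of the ligands, Tgfa (0.18, adjusted p = 0.0365) and Ereg (0.23, adjusted p = 0.0441) then passed too.

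Areg encodes amphiregulin, the ligand of Egfr that estrogen induces. At PND50 it measured 9.05 and 8.31 in mixture pools, 9.27 and 9.52 in vinclozolin pools, 9.46 and 9.71 in genistein pools, and 9.61 and 9.82 in control pools. At PND35 it measured 9.47 and 9.31 in mixture pools, 9.48 and 9.03 in vinclozolin pools, 9.60 and 9.39 in genistein pools, and 9.52 and 8.77 in control pools. The 2 mixture pools at PND50 lay below all other pools of their age, and they differed from each other by 0.74. The control pools at PND35 differed by 0.75, which the fit carries into every standard error for Areg.

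Against control at PND50, Areg was lower in both mixture pools by a log2 difference of -1.04 (SE 0.26, 95% interval -1.61 to -0.46), a level 2.05-fold below the controls, and the pools did not overlap, as held for 41.3% of all genes. The limma test did not pass (adjusted p = 0.434), although the gene ranked 56 of 11796 by its p. In this comparison 0 of the 10 members and 0.00848% of all genes passed. At an unadjusted p under 0.05 there were 2 members, Areg and Ereg, where 7.41% of all genes had one. Without mixture PND50 replicate 1 the difference was -1.40, and without replicate 2 it was -0.67. With vinclozolin both pools also lay below both control pools, as 40.3% of all genes had no overlap there, with a difference of -0.32 (SE 0.26, adjusted p = 0.862), and with genistein the pools overlapped (-0.13, SE 0.26, adjusted p = 1).

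Areg also parted between the mixture and each compound alone at PND50. The mixture pools were lower than the genistein pools by a difference of -0.90 (SE 0.26, adjusted p = 0.38) and than the vinclozolin pools by -0.72 (SE 0.26, adjusted p = 0.329). Neither passed limma's test, in comparisons where 0 of 10 members and 0.0254% and 0.0339% of all genes did. The mixture pools lay below every pool of either compound at that age, while 41.3% and 45.2% of all genes had no overlap with genistein and vinclozolin. At PND35 the mixture stood close to the others, with 0.24 (SE 0.26) against control, -0.11 (SE 0.26) against genistein and 0.13 (SE 0.26) against vinclozolin.

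The age change of Areg had opposite signs in mixture and control glands. It was -0.71 in the mixture (SE 0.26, adjusted p = 0.0589) and 0.57 in the control (SE 0.26, adjusted p = 0.276), and neither passed. The 2 PND50 pools lay below both PND35 pools in the mixture and above both in the control, as 72.9% and 54.6% of all genes had no overlap there. The difference of the 2 changes was -1.28 (SE 0.37, 95% interval -2.10 to -0.46), with an adjusted p of 0.291, in a comparison where no gene passed (0% of all genes, and 12.2% at an unadjusted p under 0.05). It ranged from -1.66 to -0.90 with single pools left out. The age change within the mixture passed the threshold without mixture PND50 replicate 1 (-1.07, adjusted p = 0.0222), without either control PND35 pool (adjusted p = 0.0353) and without vinclozolin PND35 pools, either or both (adjusted p = 0.0485). With all pools it passed with median centring (-0.74, adjusted p = 0.0456) and with array weights (adjusted p = 0.0429).

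Ereg, which encodes epiregulin, a ligand of Egfr and Erbb4, followed a like course. The PND50 values of Ereg were 6.96 and 6.78 in mixture pools, 6.93 and 7.36 in vinclozolin pools, 7.51 and 7.50 in genistein pools, and 7.33 and 7.34 in control pools. At PND35 it measured 7.20 and 6.99 in mixture pools, 7.29 and 7.10 in vinclozolin pools, 7.22 and 6.91 in genistein pools, and 6.97 and 6.74 in control pools. The mixture pools at PND50 were again low, but 1 vinclozolin pool lay between them. Their difference from control was -0.46 (SE 0.15, 95% interval -0.79 to -0.14, adjusted p = 0.539), and that from genistein was -0.63 (SE 0.15, adjusted p = 0.33). Both missed the threshold of the limma test.

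With age, Ereg differed by 0.48 in control glands (SE 0.15, adjusted p = 0.133) and 0.44 in genistein glands (SE 0.15, adjusted p = 0.111). The PND50 pools were above both PND35 pools in each, while 54.6% and 52.5% of all genes had no overlap there, in comparisons where 0 members and 0.865% and 2.77% of all genes passed. In the mixture it was -0.23 (SE 0.15, adjusted p = 0.245). The mixture's age change minus the control's was -0.71 (SE 0.21, 95% interval -1.16 to -0.26, adjusted p = 0.293), and vinclozolin's minus the control's was -0.53 (SE 0.21, adjusted p = 0.665). The average over treatments, 0.16 (SE 0.07, adjusted p = 0.0954), did not pass. It passed without genistein PND35 replicate 1 (0.20, adjusted p = 0.0469) and without vinclozolin PND50 replicate 1 (0.21, adjusted p = 0.0248).

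Across the 16 arrays Ereg and Areg moved together, with a Pearson r of 0.75 (Spearman's rho 0.75), 0.84 over the 8 PND50 pools and 0.66 over the 8 PND35 pools. Leaving out the 2 arrays farthest from the median of Areg gave 0.63 over 14. The points share their arrays and treatment groups, so this is a description. Btc, which neighbours Areg, had an r of 0.27 with it. Areg had an r of 0.35 with Pgr, the progesterone receptor gene, which was 0.26 within PND50 and 0.58 within PND35. With Esr1, the estrogen receptor gene, r was -0.23 (-0.59 within PND50 and 0.11 within PND35), and with the luminal score -0.08 (-0.57 and 0.23). The genes whose values ran most like those of Areg were Bcl7c (0.851), Syt11 (0.836) and Hps4 (0.821), and for Ereg they were Paqr3 (0.81), Gorasp1 (0.786) and Mad2l1bp (0.778).

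**Figure D2:**
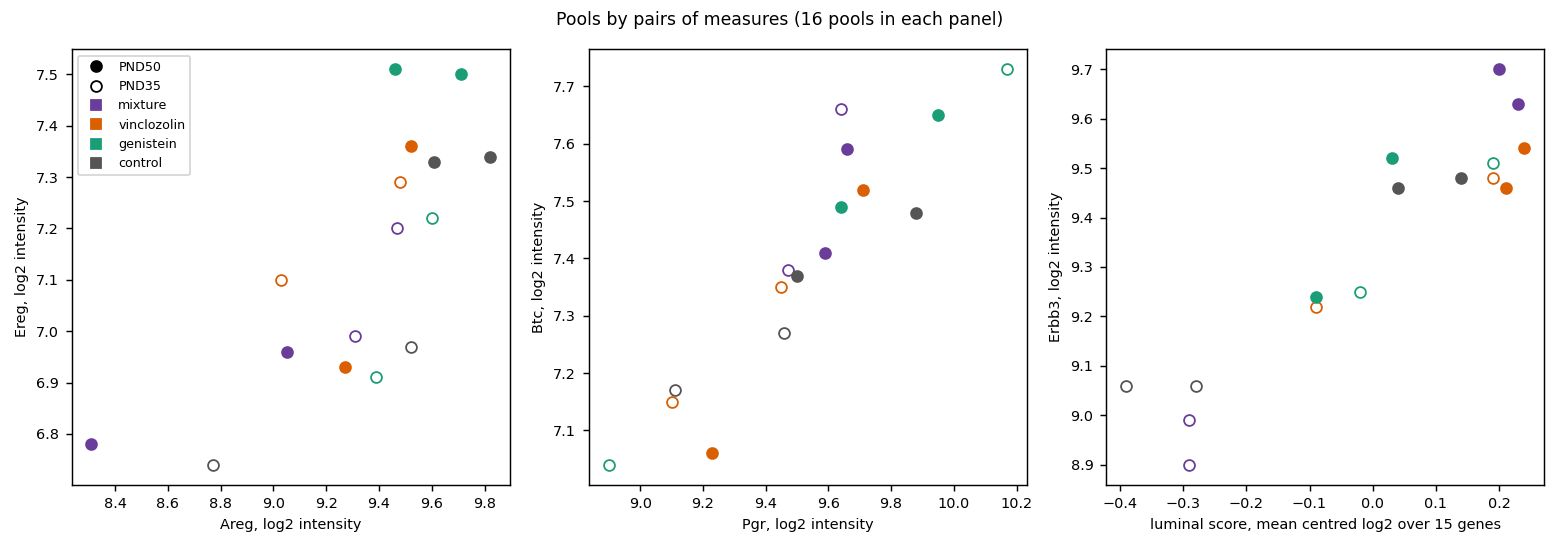
Log2 values of 16 pools in 3 pairs of measures, with filled points for PND50 and open points for PND35: Areg against Ereg, Pgr against Btc, and the luminal score (mean centred log2 value of 15 markers) against Erbb3. Pearson r over the 16 pools was 0.75, 0.92 and 0.93.

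Btc encodes betacellulin, a ligand of Egfr and Erbb4. It lay between 7.06 and 7.65 over the 8 PND50 pools, with a median of 7.49, and between 7.04 and 7.73 over the 8 PND35 pools, with a median of 7.31. The ages overlapped, and the average age change was 0.10 (SE 0.10, adjusted p = 0.42). The 2 genistein PND35 pools were the widest pair, at 7.73 and 7.04, and hold both the highest and the lowest value of the 16 pools. No exposure comparison passed, and the largest difference from control was 0.30 (SE 0.20, adjusted p = 0.501) with the mixture at PND35.

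Btc ran with the progesterone receptor. Of the tested genes without a placeholder symbol, Pgr had the highest r with Btc, 0.921 over 16 arrays, followed by Cited4 (0.839) and Rgs4 (0.833). Pgr stood at 10.17 and 8.90 in the 2 genistein PND35 pools that also set the extremes of Btc. The r was 0.89 within PND50 and 0.94 within PND35, and 0.88 without the 2 arrays farthest from the median of Pgr. Neither the age average of Pgr (0.23, SE 0.16, adjusted p = 0.252) nor its difference with the mixture at PND50 (-0.07, SE 0.32, adjusted p = 0.984) passed limma's test.

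Tgfa encodes transforming growth factor alpha, a ligand of Egfr. The PND50 values of Tgfa were 7.80 and 7.92 in mixture pools, 7.65 and 7.66 in vinclozolin pools, 7.74 and 7.60 in genistein pools, and 7.71 and 7.68 in control pools. At PND35 it measured 7.49 and 7.55 in mixture pools, 7.92 and 8.01 in vinclozolin pools, 7.86 and 7.49 in genistein pools, and 7.57 and 7.45 in control pools. The vinclozolin pools at PND35 lay above all other pools of their age, and the mixture pools of that age, whose dams had the same vinclozolin dose, lay with the controls. Of all genes, 42.7% had no overlap between vinclozolin and control there, and 50.1% between mixture and vinclozolin.

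At PND35 Tgfa was lower in the mixture than with vinclozolin alone by a log2 difference of -0.45 (SE 0.11, n = 2 pools per group, limma adjusted p = 0.048). It was the 1 member that passed there, where 2.61% of all genes did. Against control, vinclozolin differed by 0.46 (SE 0.11, 95% interval 0.23 to 0.69, adjusted p = 0.0604) at PND35, just short of the threshold, with 0 of 10 members and 1.34% of all genes past it. The call against the mixture was lost in 13 of the 16 fits that each left out 1 pool (adjusted p 0.0556 to 0.224), the exceptions being vinclozolin PND35 replicate 1 and the genistein PND35 pools. It was also lost with no filter (adjusted p = 0.0541), array weights (0.0859), a fit of these 2 groups alone (0.232) or the luminal score as a covariate (-0.17, adjusted p = 0.843). The difference from control passed without either genistein PND35 pool (adjusted p = 0.0131) and without vinclozolin PND35 replicate 1 (0.51, adjusted p = 0.0411).

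Markers of skin epithelium moved with this Tgfa difference. The hair follicle score, the mean centred log2 value of 8 genes, was 3.26 and 2.80 in the vinclozolin PND35 pools and -0.58 to -0.24 in the other 14. The epidermal score, over 5 genes, was 1.45 and 0.93 there and -0.36 to -0.03 in the others. Against control 7 of the 8 hair follicle genes and 3 of the 5 epidermal genes rose, among them Krt25, a root sheath keratin, by 5.53 (SE 0.12, adjusted p = 2.94e-10). The basal and myoepithelial score, over 9 genes, was 0.28 and 0.38 in these pools, and -0.31 and -0.40 in control pools of that age. Of those 9 genes the 2 that passed were Krt17 (2.74) and Krt14 (1.85), keratins also made in skin, and the other 7 ranged from -0.54 to 0.64. Over 16 arrays the r of Tgfa with the basal score was 0.83, at 0.96 within PND35 and -0.01 within PND50. The part of skin in the Tgfa values was not tested.

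Tgfa rose with age in the mixture, by 0.35 on the log2 scale (SE 0.11, adjusted p = 0.0272), with both PND50 pools above both PND35 pools, where 72.9% of all genes had no overlap. With vinclozolin the age change was -0.31 (SE 0.11, adjusted p = 0.129), with both PND50 pools below, where 48.4% had no overlap and 0 members and 2.78% of all genes passed. In control glands it was 0.19 (SE 0.11, adjusted p = 0.358), with both PND50 pools above, where 54.6% had no overlap. Vinclozolin's change minus the control's was -0.50 (SE 0.15, adjusted p = 0.455), with 0 members and 0.381% of all genes past the threshold. The call in the mixture was lost without mixture PND50 replicate 2 (0.29, adjusted p = 0.16) and without mixture PND35 replicate 1 (0.32, adjusted p = 0.109) or replicate 2 (0.38, adjusted p = 0.0837), and with the luminal score as a covariate the sign turned (-0.07, SE 0.17, adjusted p = 0.869). Genes most like Tgfa were Lad1, an anchoring filament protein of epithelia (0.906), Arap2 (0.905) and Epha1, an ephrin receptor (0.874).

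Hbegf encodes heparin-binding EGF-like growth factor, a ligand of Egfr and Erbb4. It lay between 6.22 and 6.67 over the 8 PND50 pools, with a median of 6.52, and between 6.49 and 6.77 over the 8 PND35 pools, with a median of 6.70. The lowest 2 pools, a control and a genistein pool, were both PND50, and the ages overlapped. The average age change was -0.18 (SE 0.07, adjusted p = 0.072), short of the threshold. It passed over all 16 arrays with quantile normalization (-0.23, adjusted p = 0.0346). It also passed without mixture PND35 replicate 1 (-0.21, adjusted p = 0.0476), without control PND50 replicate 2 (-0.21, adjusted p = 0.0448) and without genistein PND50 replicate 2 (-0.23, adjusted p = 0.0187).

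Egf, the founding ligand of the family, varied least of the 6. It lay between 7.09 and 7.30 at PND50, with a median of 7.18, and between 7.01 and 7.24 at PND35, with a median of 7.16, so the ages overlapped nearly in full. The average age change was 0.02 (SE 0.03, 95% interval -0.05 to 0.10). Its largest difference from control was 0.11 (SE 0.07, adjusted p = 0.776), with the mixture at PND50. The values nearest to those of Hbegf over the arrays were of Nsfl1c (0.859), and to those of Egf of Gpr107 (0.812).

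Among the receptors, Egfr, which binds all 6 ligands, was the steadiest. It lay between 10.16 and 10.44 at PND50, with a median of 10.25, and between 10.15 and 10.40 at PND35, with a median of 10.30. The average age change was -0.02 (SE 0.04, 95% interval -0.10 to 0.05, adjusted p = 0.587). At PND50 it measured 10.44 and 10.33 in mixture pools and 10.16 and 10.22 in vinclozolin pools, which did not overlap, as held for 45.2% of all genes. That difference of 0.20 (SE 0.07, adjusted p = 0.312) did not pass, nor did vinclozolin against control at PND35, -0.17 (SE 0.07, adjusted p = 0.306). The gene most like it was Peak1, a scaffold kinase of growth factor signalling (0.808).

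Erbb2 encodes the receptor without a ligand that pairs with the other 3. The PND50 values of Erbb2 were 8.26 and 8.27 in mixture pools, 8.55 and 8.36 in vinclozolin pools, 8.20 and 8.20 in genistein pools, and 8.16 and 8.34 in control pools. At PND35 it measured 8.37 and 8.23 in mixture pools, 8.48 and 8.87 in vinclozolin pools, 8.55 and 8.54 in genistein pools, and 8.42 and 8.26 in control pools. The highest value was a vinclozolin pool at PND35, and the ages overlapped.

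Erbb2 fell by 0.17 on the log2 scale at PND50 in the average over treatments (SE 0.06, n = 8 pools per age, limma adjusted p = 0.0339). By treatment the age change was -0.34 with genistein (SE 0.12, adjusted p = 0.117), where the pools did not overlap, as held for 52.5% of all genes there. The averaged call was lost in 11 of the 16 fits that each left out 1 pool (-0.17 to -0.12, adjusted p 0.0538 to 0.081). Those pools were control PND35 replicate 1, vinclozolin PND35 replicate 2, mixture PND35 replicate 1, control PND50 replicate 1, vinclozolin PND50 replicate 2, and both genistein PND35, genistein PND50 and mixture PND50 pools. It was also lost with quantile normalization (-0.13, adjusted p = 0.0873). With the luminal score as a covariate the fall was larger (-0.40, SE 0.09), but it did not pass (adjusted p = 0.0573). That fit called far fewer of all genes, so its lost call is no sign of a smaller change. Erbb2 ran against the macrophage score, with an r of -0.84 over 16 arrays, -0.88 within PND50 and -0.86 within PND35. With the luminal score its r was 0.3 over 16 arrays, 0.68 within PND50 and 0.87 within PND35. With the age means removed, r was -0.85 with the endothelial, -0.8 with the adipocyte and 0.75 with the basal score. It was 0.52 with the hair follicle score. Vinclozolin differed from control at PND35 by 0.33 (SE 0.12, adjusted p = 0.224). Without vinclozolin PND35 replicate 1 it was 0.53 (adjusted p = 0.0162), on 1 vinclozolin pool that is assumed to vary like the other groups. These pools had hair follicle scores of 3.26 and 2.80, and Erbb2 had an r of 0.61 with that score over 16 arrays. The part of skin in this difference was not tested.

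Erbb3 encodes the receptor for neuregulins that recruits PI3 kinase. At PND50 it measured 9.70 and 9.63 in mixture pools, 9.54 and 9.46 in vinclozolin pools, 9.52 and 9.24 in genistein pools, and 9.46 and 9.48 in control pools. At PND35 it measured 8.99 and 8.90 in mixture pools, 9.22 and 9.48 in vinclozolin pools, 9.51 and 9.25 in genistein pools, and 9.06 and 9.06 in control pools. The mixture and control pools at PND35 were the 4 lowest of the 16, and the ages overlapped only through the genistein pools and 1 vinclozolin pool of PND35.

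Erbb3 rose by 0.32 at PND50 in the average over treatments (SE 0.06, n = 8 pools per age, limma adjusted p = 0.0011), which was a 1.25-fold higher level. In the mixture it rose by 0.72 (SE 0.11, adjusted p = 0.00131), a 1.65-fold change, in a comparison where 3 members, all higher, and 32.7% of all genes passed, 14.4% of all genes higher. In control glands the difference was 0.41 (SE 0.11, adjusted p = 0.107), and with genistein it was 0.00 (SE 0.11). Both calls held with any single pool left out. Mixture minus control was 0.31 (SE 0.16, adjusted p = 0.446) and genistein minus control was -0.41 (SE 0.16, adjusted p = 0.597), so no difference between the age changes passed, where 0% of all genes did in either.

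At PND35 the effect of the mixture on Erbb3 was lower than the sum of the effects of vinclozolin and genistein. That interaction was -0.72 (SE 0.16, limma adjusted p = 0.0441), and Erbb3 was the 1 member that passed, where 1.57% of all genes did. It includes the vinclozolin PND35 pools, with their hair follicle scores of 3.26 and 2.80 against -0.58 to -0.24 in the other 14, and the part of these genes was not tested. Against the shared control pools, the mixture had -0.12 (SE 0.11), vinclozolin 0.29 (SE 0.11, adjusted p = 0.264) and genistein 0.32 (SE 0.11, adjusted p = 0.345). The mixture differed by -0.40 from vinclozolin (SE 0.11, adjusted p = 0.0763) and by -0.43 from genistein (SE 0.11, adjusted p = 0.281), where 0 members and 0% of all genes passed. The interaction was lost in 12 of the 16 fits that each left out 1 pool (-0.76 to -0.59, adjusted p 0.065 to 0.195), all but those without vinclozolin PND35 replicate 1, genistein PND35 replicate 2 or a genistein PND50 pool, and also with median centring (-0.67, adjusted p = 0.0524) and in a fit of these 4 groups alone (adjusted p = 0.188). Tgfa (-0.62, SE 0.15, adjusted p = 0.0664), Erbb2 (-0.58, SE 0.17, adjusted p = 0.12) and Erbb4 (-0.56, SE 0.20, adjusted p = 0.185) did not pass. At PND50 no member passed, where 0% of all genes did.

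The luminal epithelial markers moved with Erbb3. Of 15 markers 10 were higher and 0 lower at PND50 in the average over treatments. The luminal score was 0.20 and 0.23 in mixture PND50 pools and -0.29 in both mixture PND35 pools. At PND35 it was -0.09 and 0.19 in vinclozolin pools, 0.19 and -0.02 in genistein pools, and -0.28 and -0.39 in control pools. Erbb3 had an r of 0.93 with this score over 16 arrays, 0.76 within PND50 and 0.95 within PND35, and its nearest genes were Tmc4 and Prss8 (0.973 each) and St6galnac2 (0.97). With the score as a covariate the age average of Erbb3 was 0.07 (SE 0.08, adjusted p = 0.609), the age change in the mixture was 0.21 (SE 0.15, adjusted p = 0.529) and the interaction at PND35 was 0.04 (adjusted p = 0.999). Adipocyte markers fell beside the luminal ones, 5 of 12 lower and 0 higher with age. Other scores ran with Erbb3 or against it as well. Over 16 arrays its r was -0.84 with the adipocyte, 0.79 with the lymphocyte and -0.76 with the red cell score. It was -0.69 with the proliferation and 0.67 with the basal score. The part of these other markers was not tested.

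Erbb4 encodes the receptor for neuregulins, betacellulin and epiregulin that acts in alveolar cells. The PND50 values of Erbb4 were 8.63 and 8.95 in mixture pools, 8.54 and 8.67 in vinclozolin pools, 8.51 and 8.54 in genistein pools, and 8.90 and 8.85 in control pools. At PND35 it measured 8.36 and 8.39 in mixture pools, 8.46 and 8.74 in vinclozolin pools, 8.87 and 8.50 in genistein pools, and 8.47 and 8.23 in control pools. The PND50 pools lay above both PND35 pools in mixture and control, as 72.9% and 54.6% of all genes had no overlap there, while vinclozolin and genistein pools overlapped between the ages.

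Erbb4 rose by 0.19 at PND50 in the average over treatments (SE 0.07, adjusted p = 0.0403) and by 0.42 in the mixture (SE 0.14, adjusted p = 0.0394). In control glands the difference was 0.52 (SE 0.14, adjusted p = 0.101) and with genistein -0.16 (SE 0.14). The averaged call was lost in 11 of the 16 fits that each left out 1 pool (0.15 to 0.20, adjusted p 0.0603 to 0.0959), all but those without control PND35 replicate 1, vinclozolin PND35 replicate 2, genistein PND35 replicate 1, vinclozolin PND50 replicate 1 or mixture PND50 replicate 1. The call in the mixture was lost in 7 (0.26 to 0.43, adjusted p 0.051 to 0.279), those without either mixture PND35 pool, mixture PND50 replicate 2, or any control or genistein PND50 pool. With the luminal score as a covariate the values were -0.08 and -0.14, with the sign turned, and the r of Erbb4 with that score was 0.78 over 16 arrays, 0.94 within PND35 and 0.26 within PND50. Genistein differed from control at PND50 by -0.35 (SE 0.14, adjusted p = 1) and at PND35 by 0.33 (SE 0.14, adjusted p = 0.423), so neither passed. Plagl2 (0.889) and Shtn1 (0.88) ran most like it.

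**Figure D3:**
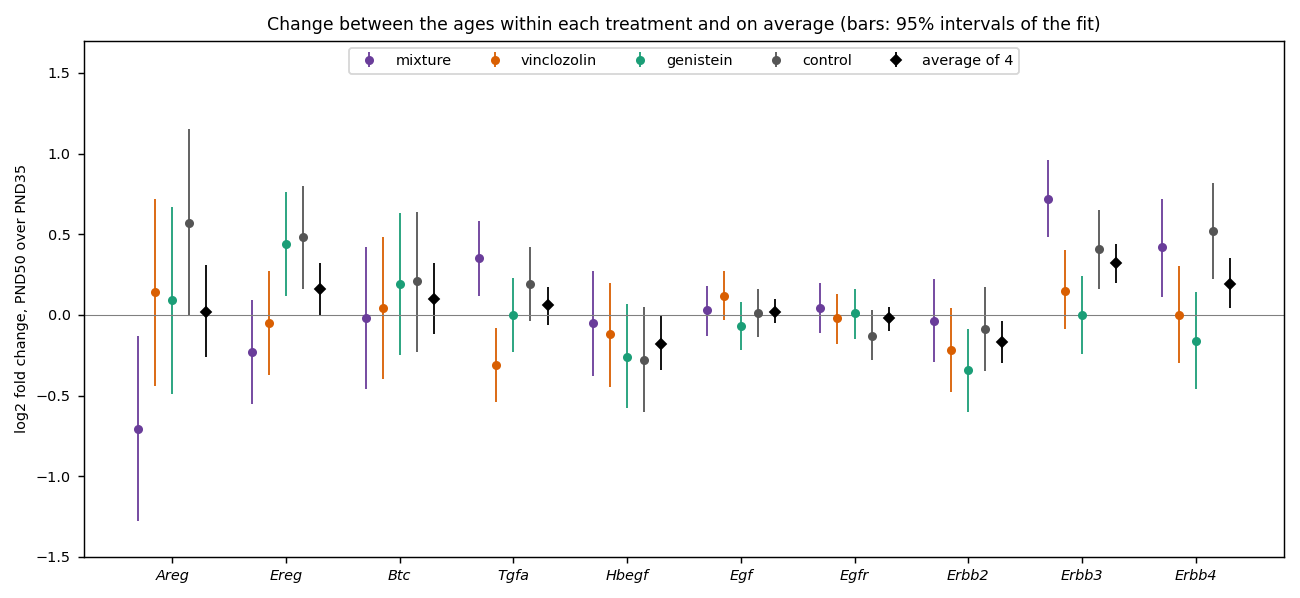
Log2 change at PND50 against PND35 (vertical axis, with 95% intervals) for the 10 genes, in the average over treatments and within each treatment. Erbb3 rose in the average (0.32) and in the mixture (0.72), and Areg had -0.71 in the mixture and 0.57 in the control.

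**Figure D4:**
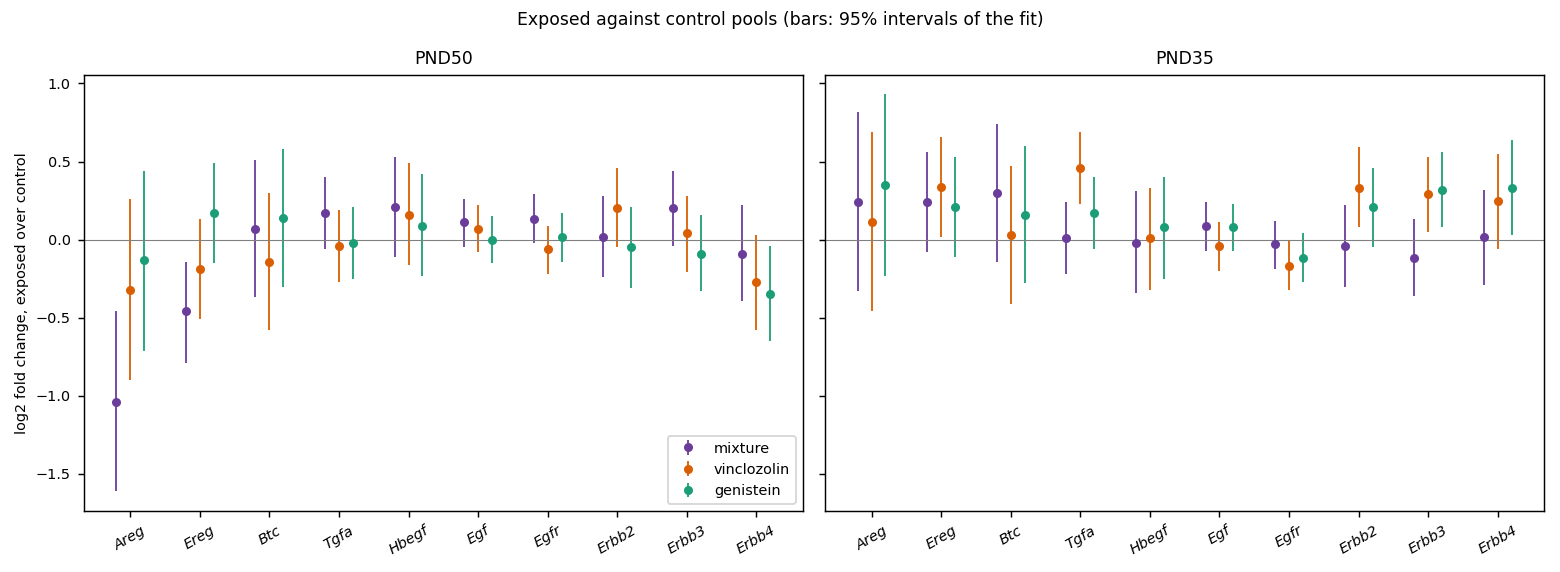
Log2 difference of each exposure from control (vertical axis, with 95% intervals) for the 10 genes at PND50 and PND35. No difference passed the test, and the farthest from 0 was Areg with the mixture at PND50 (-1.04).

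Over the 6 comparisons of an exposure with control, no member passed limma's test. The mixture, vinclozolin and genistein share 2 control pools at each age. At an unadjusted p under 0.05 there were, at PND35, 0 members with the mixture, 5 with vinclozolin and 2 with genistein, where 15.3%, 14.5% and 11.1% of all genes had one. At PND50 there were 2, 0 and 1, where 7.41%, 6.04% and 2.6% had one. With vinclozolin at PND35 the 5 were Tgfa, Erbb2, Erbb3, Egfr and Ereg, and with genistein at that age they were Erbb3 and Erbb4.

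Counts of other pathway genes with age are to be read beside the 19.4% of all genes that were higher and the 25.2% that were lower in that comparison. Of the other ligands, Nrg1, which encodes a neuregulin, rose by 0.31 (SE 0.08, adjusted p = 0.0105), and Nrg2 (-0.12, SE 0.08, adjusted p = 0.234) did not pass. Of 9 tested shedding genes 2 rose and 2 fell: Rhbdl2, a rhomboid protease, by 0.36 (SE 0.09) and Rhbdf1 by 0.10 (SE 0.04), while Adam17, the main sheddase of these ligands, fell by 0.25 (SE 0.03, adjusted p = 0.000281) and Nrdc, which enhances shedding, fell by 0.26 (SE 0.04). These are shares near those of all genes. Of 13 receptor inhibitors 3 rose and 2 fell, among them Ptpn1, a phosphatase, higher by 0.37 (SE 0.09), and Cblc, a ubiquitin ligase, higher by 0.17 (SE 0.05). The medians of the shedding and inhibitor lists were both 0.01, beside -0.008 over all genes.

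Downstream, 7 of 26 adaptor and kinase genes rose and 7 fell, near the 19.4% and 25.2% of all genes, with a median of -0.03. Pik3r1, the regulatory subunit of PI3 kinase, rose by 0.33 (SE 0.06) and Stat3, a transcription factor, by 0.28 (SE 0.05), while Map2k1, the kinase upstream of ERK, fell by 0.23 (SE 0.04) and Ptpn11, the phosphatase Shp2, fell by 0.21 (SE 0.04). Of 10 ERK feedback inhibitors 1 rose and 2 fell, and Spry4 fell by 0.49 (SE 0.07, adjusted p = 0.000559). Of 16 ERK response genes 4 rose, near the 19.4% of all genes, and 0 fell, where 25.2% of all genes did: Phlda1 by 0.37 (SE 0.11), Egr1 by 0.34 (SE 0.10), Junb by 0.27 (SE 0.07) and Fosl1 by 0.14 (SE 0.04). Their list median was 0.02.

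Of 12 tested genes of the estrogen receptor and its targets, a list that also holds luminal factors, 6 rose and 1 fell, where 19.4% of all genes were higher and 25.2% lower, with a median of 0.17. Stc2, a secreted glycoprotein, rose by 0.61 (SE 0.19), Gata3, a luminal transcription factor, by 0.44 (SE 0.06) and Prlr, the prolactin receptor, by 0.23 (SE 0.07), while Wnt4, a progesterone target, fell by 0.28 (SE 0.06). No gene of the 7 lists passed in any comparison of an exposure with control. With the mixture at PND50, where Areg was lowest, Esr1 had a difference of 0.24 (SE 0.13, adjusted p = 0.717), Cited1, a coregulator of estrogen receptor, -0.45 (SE 0.16, adjusted p = 0.593), Dusp6, an ERK phosphatase, 0.40 (SE 0.13, adjusted p = 0.539) and Fos 0.47 (SE 0.19, adjusted p = 0.641). These genes were picked after their values were seen. Others of the estrogen receptor list had smaller differences there, among them Foxa1 (0.11), Gata3 (0.04), Pgr (-0.07) and Prlr (-0.07), while Wnt4 had -0.25. The ERK lists went both ways there. Egr2 (-0.43, SE 0.31), Egr3 (-0.37, SE 0.27), Phlda1 (-0.25, SE 0.23) and Dusp5 (-0.13, SE 0.10) were lower. Junb (0.36, SE 0.14) and Dusp4 (0.22, SE 0.10) were higher, and Egr1 had 0.05 (SE 0.20).

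**Figure D5:**
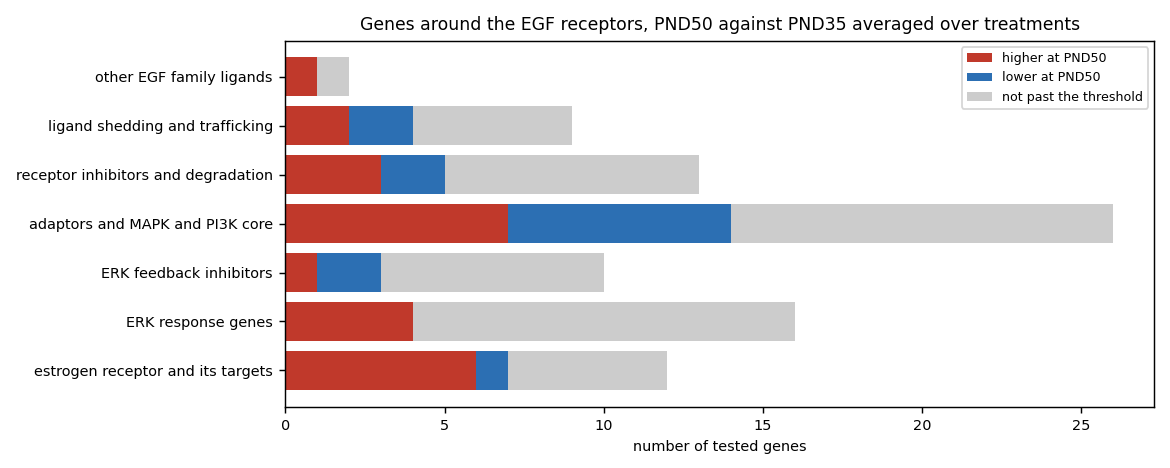
Number of tested genes (horizontal axis) in each of the 7 pathway lists that were higher at PND50, lower at PND50 or not past the threshold, in the average over treatments. The adaptor and kinase list had 7 higher and 7 lower of 26, and the estrogen receptor list had 6 higher and 1 lower of 12.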

How the data were processed

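Log2 intensities of 27342 probe sets on 16 arrays were analysed from the table of values the authors deposited. The log base was read from their range (2.2 to 13.9); how background was corrected, which normalization was used and with which software is not given in the sources used here. Groups and replicate numbers came from the sample titles. Values were used as deposited, with array medians of 7.05 to 7.145.

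Of the probe sets, 15097 carry exactly 1 symbol in the platform's annotation, 323 carry several and 11922 are unnamed here. Identifiers of 15067 matched the RefSeq table of GRCr8, and 30 kept the annotation's symbol. For 499 of 14324 symbols with several probe sets, the one with the highest mean was kept. Genes whose mean was below the 25th percentile over the probe sets (5.661) were left out.

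Tests used limma 3.58.1 in R 4.3.3 (lmFit and eBayes, 8 residual degrees of freedom), with Benjamini-Hochberg adjustment over 11796 genes in each of 20 comparisons. The median standard error of a log2 difference was 0.0941 between 2 groups, 0.0471 for the age average and 0.133 for interactions. A marker score is the mean, over a list, of log2 values centred over the arrays. The fit was tested on simulated data. Alternatives were the filter, normalization, probe set rule, replicate block, array weights, variance model, luminal score as a covariate, fits on fewer arrays, and the omission of each pool in turn.

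The members, lists and comparisons were chosen with earlier results of these data known. All 10 members are named in the text. From each pathway list the text names up to 4 genes past the threshold with the largest age change, and any past it with an exposure. For likeness, the genes with the highest Pearson r were taken, without placeholder symbols. Pgr, Esr1, Cited1, Dusp4, Dusp5, Dusp6, Egr2, Egr3, Fos, Nrg2 and the marker genes were added after their values were seen. Promoters are from a RefSeq table of GRCr8. Figures used matplotlib 3.10.9 in Python 3.11.15. Replicate numbers share nothing per the labels, and deviations of same-numbered pools had a median r of 0.035 over 28 pairs of groups (-0.366 to 0.301), so they were not treated as pairs.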

Additional observations from a re-analysis of the deposited data

Results flagged for a closer look

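Areg had pools that moved opposite ways with age in mixture and control glands. Its age change in the mixture minus that in the control was -1.28 (SE 0.37), and the limma test of that difference did not pass (adjusted p = 0.291).

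Ereg, measured in the same pools, also moved opposite ways, with a difference of age changes of -0.71 (SE 0.21, adjusted p = 0.293). Its mixture pools lay at 6.96 and 6.78 at PND50 and at 7.20 and 6.99 at PND35.

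Tgfa had vinclozolin pools that were lower at PND50 and control pools that were higher, with a difference of age changes of -0.50 (SE 0.15) that did not pass (adjusted p = 0.455).

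Erbb3 at PND35 had an effect of the mixture that differed from the sum of the effects of both compounds, by -0.72 (SE 0.16, limma adjusted p = 0.0441). On values rounded as printed, no pool of any member passed Dixon's criterion for standing far from the other 7 of its age. The nearest was Btc in vinclozolin PND50 replicate 1, the lowest of its age, with a gap of 0.525 of the range. It lay just under the limit, so its result rests on the rounding and that pool is not cleared.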

How the results depend on the processing

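Of 5320 values of members under the alternatives, 5217 kept their side of the threshold, 68 lost a call with the sign kept and 31 gained one. The 5217 include changes of sign where neither fit passed. Another 4 values lost a call and turned sign. The sign turned with the luminal score as a covariate for the age average of Erbb4 (-0.08), the age change in the mixture of Erbb4 (-0.14) and Tgfa (-0.07), and the Erbb3 interaction at PND35 (0.04). That score itself differs between the ages.

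The count of members past the threshold in the age average was 3; it was 0 with the luminal covariate, 5 without both vinclozolin PND35 pools, and 1 to 4 with 1 pool left out. In the mixture with age it was 3, against 0 with the luminal covariate and 1 to 4 with 1 pool left out. For the mixture against vinclozolin at PND35 it was 1, against 0 with no filter, the replicate block, array weights, the luminal covariate or a fit of the compared groups, and 0 to 3 with 1 pool left out. For the interaction at PND35 it was 1, against 0 with median centring, the luminal covariate or a fit of the compared groups, and 0 to 3 with 1 pool left out. For vinclozolin against control at PND35 it was 0, against 1 with median centring or with an intensity trend and robust fit, and 0 to 2 with 1 pool left out. In control glands with age it was 0, against 2 with array weights, and in vinclozolin glands 0, against 1 with the luminal covariate.

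In the mixture with age, 4 members in place of 3 passed, Areg being added, with median centring (-0.74, adjusted p = 0.0456), array weights (-0.71, 0.0429), both vinclozolin PND35 pools left out (0.0485) and the replicate block (0.0489), whose numbers the labels do not tie to anything.

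The counts over all genes moved too. The age average called 5261 genes and 68 to 5486 under other settings, the lowest with the luminal covariate. In control glands it called 102 (0 to 375), in genistein glands 327 (0 to 477), in vinclozolin glands 328 (25 to 407) and in the mixture 3852 (0 to 4568). Vinclozolin against control at PND35 called 158 (25 to 844), the mixture against vinclozolin at PND35 308 (31 to 770) and the interaction at PND35 185 (25 to 764). Hbegf had a mean below the 50th percentile (7.092) and has no value with that filter. The number of pools limits what could be detected, and the cause of the lost calls was not tested.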
